A study of Mus musculus with 18 samples.

Results

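A set of 10 transcription factors, grouped for their links to the luminal and milk-secreting (alveolar) cells of the mammary gland, was followed across 3 sorted populations of mouse mammary epithelium. They are Elf5, Elf3, Ehf, Gata3, Foxa1, Sox9, Sox10, Xbp1, Cebpb and Tbx3. All probe sets that the platform annotation assigns to these genes were taken. Chip A of the array pair carried 21 of them and chip B another 5, which makes 26 of 45037 probe sets and 10 of 18194 named genes. None of the 26 was assigned to a second gene, and all 26 passed the filter on low signals.

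CFC is a fraction of freshly dissociated tissue enriched for colony forming progenitors, of which the labels estimate 1 among 10 sorted cells. In MaSC, mammary stem cells were enriched to an estimated 1 among 50 to 100 cells, so most cells of either fraction were something else. MYO holds myoepithelial cells of the basal layer at a purity of about 94%, with surface markers near those of MaSC but few stem cells. Each population had 3 RNA samples, and every one of them was read on chip A and on chip B. An RNA sample came from 3000 to 4000 CFC cells, 2000 to 4000 MaSC cells or 3000 to 24000 MYO cells. Biological triplicates are stated for CFC alone. No treatment or genotype is given for any group, nor the strain or age of the mice. For MYO and MaSC the p-values therefore rest on a spread that may be only technical.

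The mammary epithelium has an inner luminal layer, which holds hormone-sensing cells and the progenitors of milk-secreting cells, and an outer basal layer of contractile myoepithelial cells. Gata3 and Foxa1 are needed for luminal and hormone-sensing cells, Elf5 drives the alveolar fate downstream of prolactin, and Elf3 and Ehf belong to the same epithelial branch of the Ets family as Elf5. Sox9 and Sox10 are related factors of the SoxE group known from mammary progenitors, and Sox10 is also a regulator of glia and melanocytes. Xbp1 expands the secretory apparatus, Cebpb is required for alveolar development, and Tbx3 is required for the formation of the mammary bud and is found in hormone-sensing cells.

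The promoters of the factors whose signals differed most are shown first, so that the genes behind the values can be seen. Of the 10 factors 6 had an entry in the RefSeq promoter table of the mouse assembly GRCm38.p6, namely Elf5 (with 2 starts), Elf3, Gata3, Foxa1, Xbp1 and Cebpb. The 250 bases before the start are printed 5′ to 3′ on the strand of the gene. Those of Elf5 lie at chr2:103411848-103412097 and chr2:103423818-103424067 on the plus strand, and that of Foxa1 at chr12:57546112-57546361 on the minus strand. Capitals mark matches, on either strand, to 7 short motifs of the factors' own families.
Foxa1: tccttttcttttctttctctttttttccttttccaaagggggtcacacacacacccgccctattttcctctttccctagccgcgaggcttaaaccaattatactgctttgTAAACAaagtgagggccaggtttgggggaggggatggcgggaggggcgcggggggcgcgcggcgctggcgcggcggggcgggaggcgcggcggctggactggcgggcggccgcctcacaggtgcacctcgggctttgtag
Elf5, start 1: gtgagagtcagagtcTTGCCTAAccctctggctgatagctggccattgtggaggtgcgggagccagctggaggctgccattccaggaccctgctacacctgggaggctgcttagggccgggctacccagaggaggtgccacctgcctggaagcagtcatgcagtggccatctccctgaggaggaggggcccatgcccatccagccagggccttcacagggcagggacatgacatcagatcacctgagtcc
Elf5, start 2: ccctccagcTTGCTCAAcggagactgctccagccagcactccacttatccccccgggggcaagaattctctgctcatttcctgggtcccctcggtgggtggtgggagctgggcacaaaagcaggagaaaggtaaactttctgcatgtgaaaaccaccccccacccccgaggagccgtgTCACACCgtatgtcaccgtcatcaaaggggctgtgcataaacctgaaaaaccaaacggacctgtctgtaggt

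The motifs searched were AGGAAG for Ets factors, AGATAA for Gata factors, TGTTTA for forkhead factors, AACAAT for Sox factors, TTGCNNAA for C/EBP factors, GGTGTGA for T-box factors and GACGTG for Xbp1. The Foxa1 promoter held 1 forkhead match, 140 to 135 bases before the start, and the forkhead motif was present in 12% of all 32851 promoter windows of the same length. Each Elf5 promoter held 1 C/EBP match, at 235 to 228 and 241 to 234 bases before the start, against 9.56% of all windows. The second Elf5 promoter also held a T-box match at 72 to 66 bases, a motif present in 3.33% of all windows. The Xbp1 promoter had 1 C/EBP match, and those of Elf3, Gata3 and Cebpb had none of the 7 motifs. No 2 matches overlapped. In the gene table of that assembly Elf5 and Ehf are direct neighbours, with 0 protein-coding genes between them.

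The populations were checked against keratin and contractile genes. Krt5 had signals of 181 to 1280.4 in CFC, 19242 to 41731 in MYO and 11421 to 50567 in MaSC, and Krt14 and Acta2 were likewise separated without overlap. The luminal keratin gene Krt18 had 95288 to 203907 in CFC, 6619.7 to 20631 in MYO and 21121 to 31625 in MaSC. On chip A the summed signal of 11 luminal marker genes was 387256 to 642152 in CFC, 47598 to 130269 in MYO and 123877 to 166525 in MaSC, and the summed signal of 12 basal marker genes was 20853 to 33668 in CFC, 452290 to 713313 in MYO and 392515 to 718009 in MaSC. In such bulk samples fewer cells of a type and less RNA per cell cannot be told apart. Both chips had a mean signal of 1500 on every array, after trimming of extremes.

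Of the 26 probe sets 1 passed the test in any comparison. This was Foxa1, which was lower in MYO than in CFC (limma adjusted p = 0.0464), and 0.541% of all 20159 probe sets tested on chip A were called lower in that comparison. Between MaSC and CFC 0 of the 26 were called by limma in either direction, against a background of 0.357% lower and 0.818% higher on chip A, and 0.0187% and 0.0795% on chip B. At an unadjusted p under 0.05, 4 of the 21 chip A probe sets were lower and 1 higher in MaSC than in CFC, where 4.11% and 4.27% of all chip A probe sets were, and 5 were lower and 1 higher in MYO, where 3.75% and 4.21% were. The lower counts include Elf5 1419556_at in both comparisons and Ehf 1419474_a_at in MYO. Neither met the filter on low signals without its CFC arrays, so their low basal values were favoured in advance. The Ehf probe set needed 1 MaSC array as well, and none of its MYO arrays reached the filter signal. No probe set of the 10 factors was called higher in MYO, beside 1.17% of chip A and 0.108% of chip B. The test for any difference among the 3 populations called 0 of the 26 (limma), beside 1.56% of chip A and 0.14% of chip B, and 4 of the 21 chip A and 0 of the 5 chip B probe sets had an unadjusted p under 0.05 in it, where 7.63% and 4.66% of all probe sets of those chips did. None of the 5 chip B probe sets reached that level, where 5.23% of all chip B probe sets did in MaSC and 5.33% in MYO. The median log2 fold change of the 21 chip A probe sets was -0.58 in MaSC and -0.53 in MYO against CFC, beside -0.018 and -0.012 over all chip A probe sets. CFC, which is the control of both of these comparisons, had the highest mean of the 3 populations for 17 of the 26 probe sets, MYO for 5 and MaSC for 4. The same count over all probe sets is not given, so the 17 are not read as a result. Of the 26, 4 met the filter only with their CFC arrays, all of them on chip A. Of these, 3 needed their MaSC arrays as well (Ehf 1419474_a_at, Ehf 1419475_a_at and Tbx3 1439567_at), and none of their MYO arrays reached the filter signal. The chip A medians and the count of highest means therefore favour CFC in part by selection, and those 3 probe sets also favour MaSC over MYO.

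**Figure D1:**
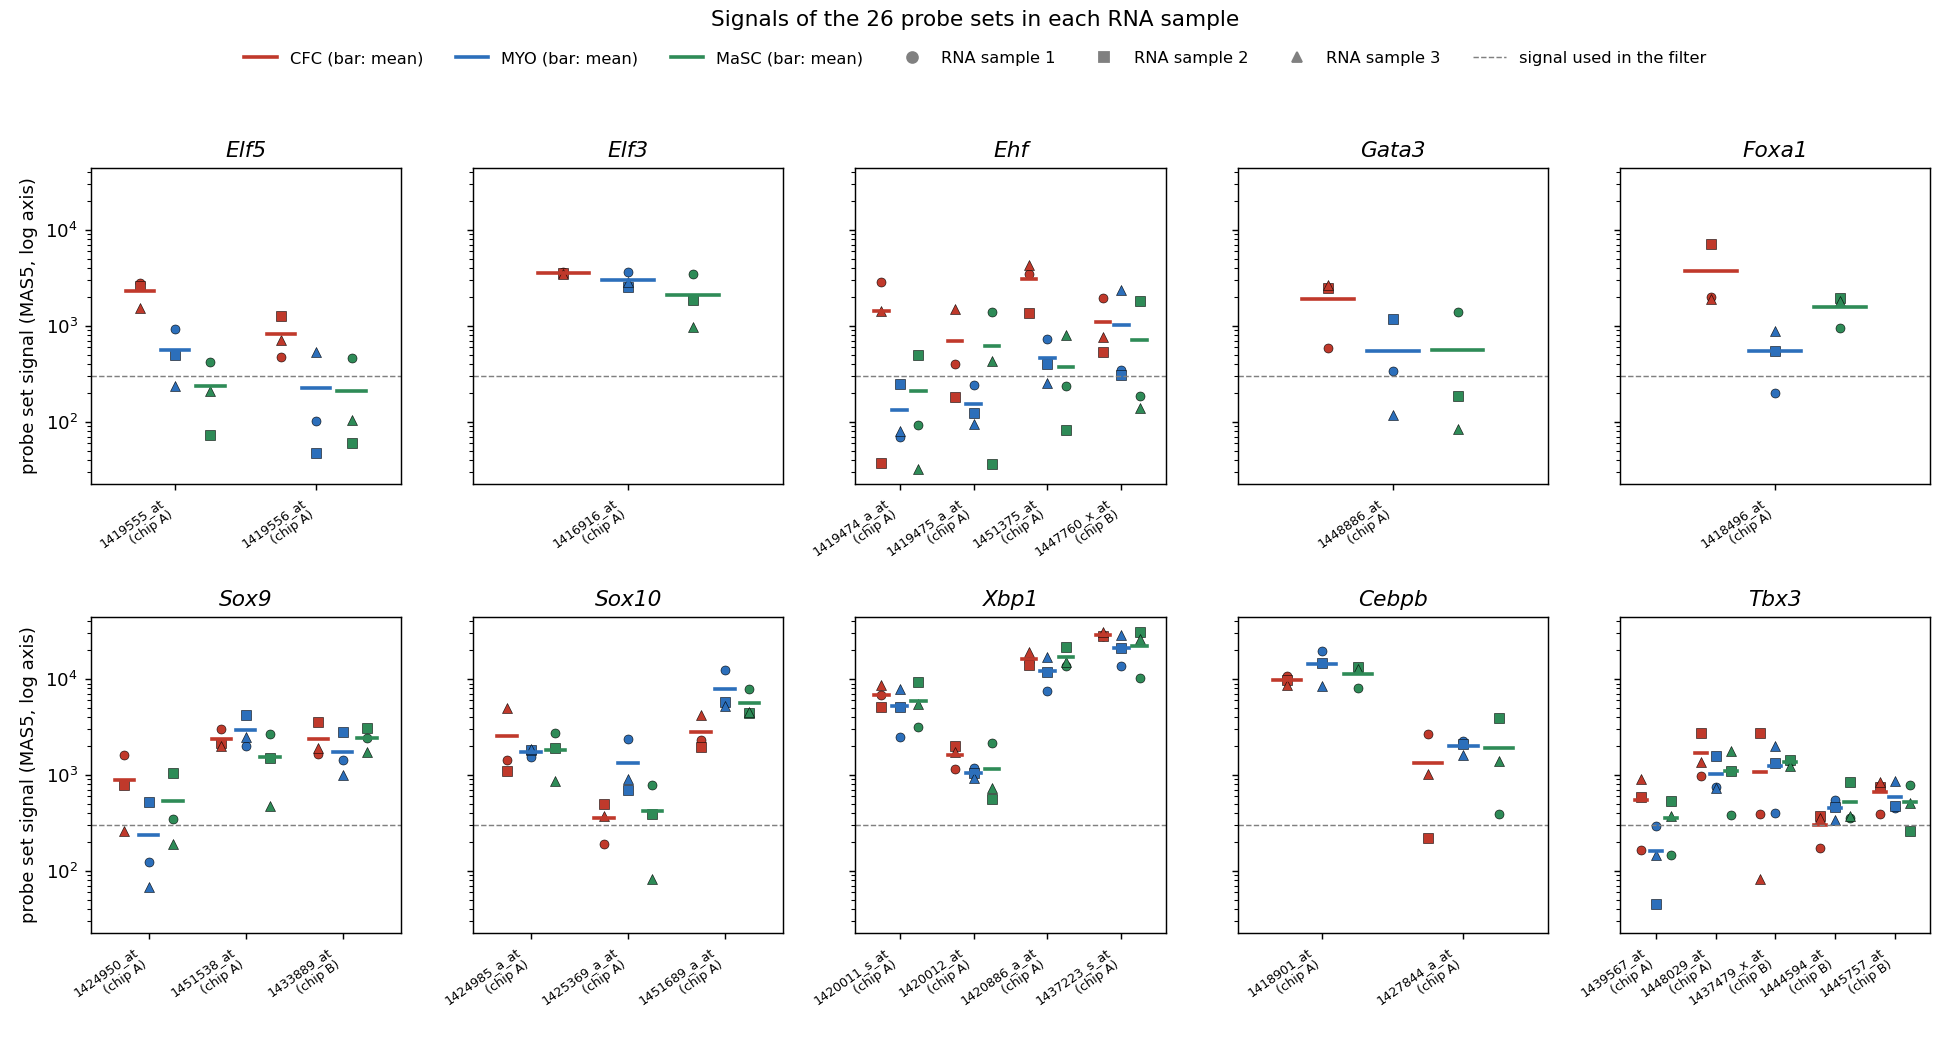
Signals of the 26 probe sets of the 10 factors, in 1 panel per gene. The vertical axis is the deposited MAS5 signal on a log axis, points are the 9 RNA samples (colour for population, shape for sample number), bars are means and the dashed line is the signal of 300 used in the filter. All 3 CFC points lie above all MYO and MaSC points for Elf5 1419555_at and Ehf 1451375_at, and above all MYO points for Foxa1.

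Foxa1, the forkhead factor that opens chromatin for oestrogen receptor, had a single probe set, 1418496_at on chip A. Its signal was 2027, 7190.3 and 1901 in CFC, 200.1, 549 and 877 in MYO and 944, 1945 and 1824 in MaSC. All MYO samples lay below all CFC and all MaSC samples, while CFC and MaSC overlapped, and the highest value was that of CFC replicate 2. MYO was 5.07-fold lower than CFC (log2 -2.34 ± 0.63, SE), and MaSC differed from CFC by -0.95 ± 0.63 (limma adjusted p = 0.753). MaSC was higher than MYO by 1.39 ± 0.63 with a 95% interval of 0.11 to 2.67, which had an unadjusted p of 0.0342 and did not pass after adjustment (limma adjusted p = 0.999). The order of the means was therefore CFC, MaSC and MYO, with CFC and MaSC not separated beyond their spread.

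The Foxa1 call rested on a narrow margin. It was lost under 15 of 22 other settings, in which the log2 fold change ran from -2.69 to -1.74 and the adjusted p from 0.0161 to 0.547. Without CFC replicate 2 the change was -1.74 (limma adjusted p = 0.547), and without MYO replicate 1 it was -1.92 (limma adjusted p = 0.265). Scan day as a block gave -2.44 (adjusted p = 0.0739), and the arrays of the first scan day alone gave -2.42 (adjusted p = 0.130). On the second scan day of chip A, which held no CFC array, Foxa1 had a signal of 549 in the MYO sample and 1824 in the MaSC sample. Of 11 luminal marker genes 9 fell in MYO against CFC and 5 in MaSC against CFC, with the summed signals given above. Over all genes 0.45% were called lower in MYO and 0.265% in MaSC. None of the 11 was under a signal of 300 on all 9 arrays, and the part of luminal cells in the Foxa1 result was not tested.

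Elf5, the Ets factor required for alveolar differentiation and a marker of luminal progenitors, had 2 probe sets on chip A. For 1419555_at the signals were 2826, 2611 and 1554 in CFC, 939, 493 and 235 in MYO and 423, 72.9 and 209 in MaSC. Every CFC sample was above every MYO and MaSC sample, and MYO and MaSC overlapped. The log2 fold change against CFC was -2.75 ± 0.74 in MaSC, a 6.73-fold difference (limma adjusted p = 0.0636), and -1.90 ± 0.74 in MYO (limma adjusted p = 0.363). The MaSC value passed the threshold under 3 of 22 other settings, with the larger pseudocount (adjusted p = 0.0477), with array quality weights (0.0166) and without MaSC replicate 1 (0.0424), and the range over the 22 was 0.0166 to 0.266. With scan day as a block it was -2.75 (adjusted p = 0.121), and within the first scan day -2.75 (0.197). The other probe set, 1419556_at, had dimmer signals of 470.0, 1284 and 721 in CFC, 102, 47.2 and 531 in MYO and 459, 59.9 and 105 in MaSC. Here CFC was above MaSC in every sample, but the third MYO sample lay within the CFC range. Its log2 fold changes were -1.52 ± 0.73 in MaSC and -1.51 ± 0.73 in MYO (limma adjusted p = 0.574 and 0.618). Between MaSC and MYO the 95% interval of the log2 fold change was -2.36 to 0.66 for the first probe set and -1.50 to 1.47 for the second.

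Ehf, an epithelial Ets factor and the chromosomal neighbour of Elf5, was read by 4 probe sets that did not behave alike. The brightest in CFC, 1451375_at, had signals of 3512, 1364 and 4346 in CFC, 738, 402 and 254 in MYO and 239, 82.5 and 796 in MaSC. As for Elf5, all CFC samples were above all others and MYO and MaSC overlapped. The log2 fold change was -2.73 ± 0.75 in MaSC (limma adjusted p = 0.0718) and -2.32 ± 0.75 in MYO (limma adjusted p = 0.158) against CFC. The MaSC value passed with the larger pseudocount (adjusted p = 0.0480) and the MYO value in a fit of those 2 populations alone (0.0401), and neither passed under any other setting tried. Within the first scan day the values were -3.28 in MaSC and -2.29 in MYO (adjusted p = 0.0658 and 0.381). Of the probe set 1419474_a_at the CFC samples had 2851, 37.7 and 1424, so that CFC replicate 2 lay below most MYO and MaSC samples, which ran from 32.0 to 501. The remaining probe sets, 1419475_a_at and, on chip B, 1447760_x_at, overlapped in all comparisons, with signals from 36.7 to 1517 and from 140.5 to 2393. Their log2 fold changes against CFC were between -1.17 and -0.29.

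Elf3, the third epithelial Ets factor, was measured by 1416916_at, and its signal was 3667, 3534 and 3451 in CFC, 3621, 2562 and 2894 in MYO and 3495, 1881 and 975 in MaSC. The CFC samples were close to each other and MaSC spread the most, so that the populations overlapped. The log2 fold change against CFC was -0.23 ± 0.47 in MYO and -0.87 ± 0.47 in MaSC (limma adjusted p = 0.979 and 0.660). The 95% intervals were -1.20 to 0.73 and -1.84 to 0.10.

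In all, 3 of the 21 chip A probe sets had every MaSC sample below every CFC sample, the Elf5 pair and Ehf 1451375_at, where 7.43% of all chip A probe sets did. Of these, Elf5 1419556_at met the filter on low signals only through its CFC arrays. Likewise 3 had every MYO sample below every CFC sample, namely Elf5 1419555_at, Ehf 1451375_at and Foxa1, where 7.36% did. In the upward direction the count was 1 in MaSC and 2 in MYO, all of them probe sets of Sox10, beside 6.19% and 6.71% of all chip A probe sets. None of the 5 chip B probe sets was separated in this way from CFC, where 5.22% were lower and 5.01% higher in MaSC and 5.15% and 4.88% in MYO.

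**Figure D2:**
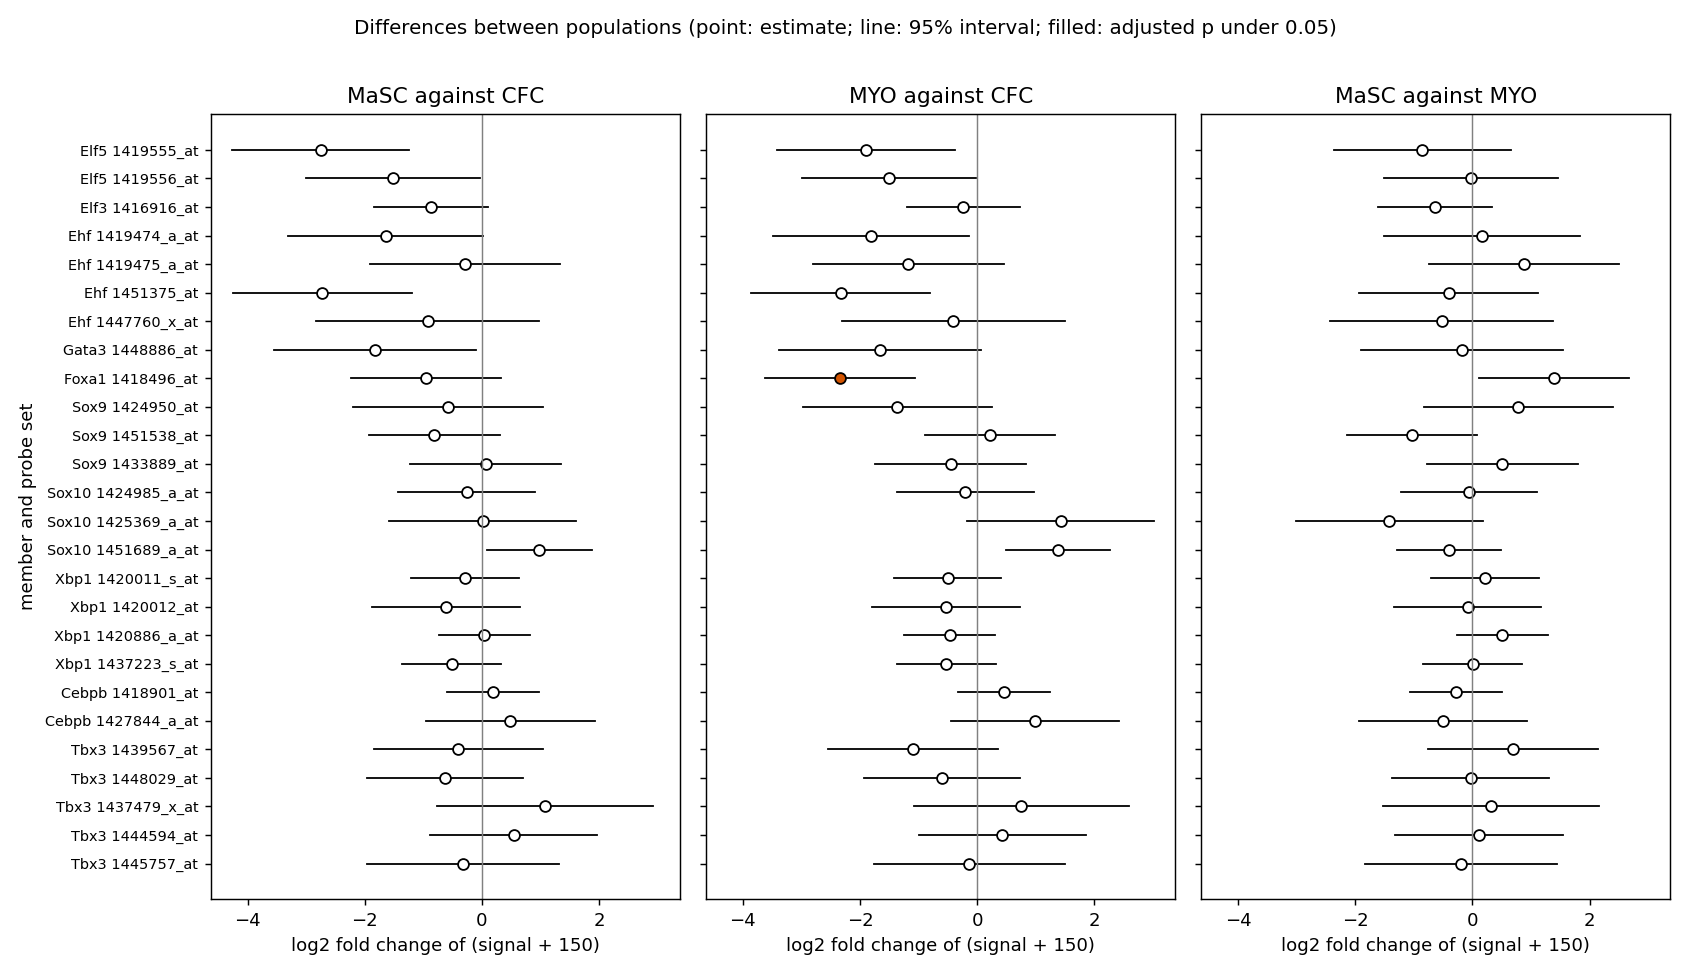
Log2 fold changes of (signal + 150) for the 26 probe sets in the 3 comparisons. Points are limma estimates from 3 RNA samples per population, lines are 95% intervals and the filled point has an adjusted p under 0.05. Foxa1 in MYO against CFC is the single filled point, and the intervals of Elf5 1419555_at and Ehf 1451375_at against CFC lie below 0 before adjustment.

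Gata3, a zinc finger factor that specifies and maintains luminal cells, was measured by 1448886_at. Its signal was 595, 2484 and 2665 in CFC, 341, 1190.5 and 117 in MYO and 1408, 184 and 84.9 in MaSC. CFC had the 2 highest samples, but CFC replicate 1 lay below the second MYO sample and the first MaSC sample. The log2 fold changes against CFC were -1.83 ± 0.84 in MaSC and -1.66 ± 0.84 in MYO (limma adjusted p = 0.542 and 0.665).

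Tbx3, a T-box repressor, was covered by 5 probe sets, of which chip A carried 2 and chip B the other 3, and no comparison separated its samples. The chip A probe set 1448029_at had signals of 982, 2724 and 1354 in CFC, 752, 1599.6 and 739.6 in MYO and 387, 1108 and 1803 in MaSC. Its sister 1439567_at was dimmer, at 164 to 908 in CFC, 45.3 to 292 in MYO and 149 to 539 in MaSC, and all 3 MYO values were under the signal of 300. On chip B the brightest, 1437479_x_at, ran from 83.2 to 2756 within CFC alone, and MaSC was tightest at 1242 to 1426. The signal of 1444594_at was 174 to 376 in CFC, 340.3 to 545 in MYO and 356 to 852 in MaSC, and that of 1445757_at was 396 to 851, 453 to 859 and 259 to 788. The log2 fold changes against CFC lay between -1.09 and 1.07 over the 5 probe sets, with the 2 on chip A below 0 in both comparisons and 1437479_x_at and 1444594_at above 0. The lowest limma adjusted p among them was 0.805.

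Sox10 was the 1 factor of the 10 with a probe set whose samples all lay higher in both basal fractions than in CFC. The probe set 1451689_a_at had signals of 2342, 1963 and 4183 in CFC, 12482, 5712 and 5309.9 in MYO and 7940.4, 4480.5 and 4541 in MaSC. All MYO and MaSC samples were above all CFC samples, and MYO and MaSC overlapped. The log2 fold change was 1.38 ± 0.44 in MYO (limma adjusted p = 0.140) and 0.98 ± 0.44 in MaSC (limma adjusted p = 0.508) against CFC. It was not called under any of the 22 other settings, where the adjusted p of the MYO value ran from 0.0591 to 0.719. Within the first scan day the MYO value was 1.55 (adjusted p = 0.205). The dimmer 1425369_a_at had 189.8, 505 and 373 in CFC, 2366, 693 and 913 in MYO and 784, 396 and 82.7 in MaSC, so that it separated MYO from CFC but not MaSC from CFC. Its log2 fold change was 1.43 ± 0.78 in MYO and 0.01 ± 0.78 in MaSC (limma adjusted p = 0.714 and 0.991). The third probe set, 1424985_a_at, did not separate the populations, with log2 fold changes against CFC of -0.20 ± 0.57 in MYO and -0.26 ± 0.57 in MaSC. Its highest signal of 5053 was in CFC replicate 3, while the other CFC samples had 1450 and 1096.

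Because Sox10 also marks Schwann cells and melanocytes, other markers of those cells were set beside it. Of 16 such markers 13 were tested, and 2 rose in MYO against CFC, the myelin genes Cnp (2.80) and Pmp22 (2.55), while Erbb3, a neuregulin receptor gene, fell (-2.71; limma adjusted p = 0.00633, 0.000251 and 0.0113). Pmp22 also rose and Erbb3 also fell in MaSC (2.01 and -2.65; limma adjusted p = 0.00632 and 0.0215). Over all genes 0.9% were called higher and 0.45% lower in MYO, and 0.629% and 0.265% in MaSC. The median log2 fold change of the 13 was 0.43 in MYO and 0.24 in MaSC, beside -0.017 and -0.031 over all genes. Cnp, Erbb3 and, in MaSC, Pmp22 lost their calls in at least 1 run with an RNA sample left out. Summed over 12 of these genes on chip A, the signal was 15352 to 21137 in CFC, 24646 to 39821 in MYO and 21447 to 26068 in MaSC. The glial marker S100b was under a signal of 300 in 5 of 9 samples, and the part of such cells in the Sox10 signal was not tested.

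Sox9, the other SoxE factor, had 3 probe sets, each with overlapping populations. For 1451538_at the signals were 3045, 2178 and 1993 in CFC, 2028, 4233 and 2498 in MYO and 2709, 1490.4 and 476 in MaSC, and on chip B 1433889_at had 1649, 3557 and 1915 in CFC, 1446, 2819 and 995 in MYO and 2422, 3084 and 1745 in MaSC. No population stood apart in either. The dim 1424950_at had 262 to 1625 in CFC, 68.7 to 528 in MYO and 191 to 1060.5 in MaSC. The log2 fold changes against CFC were -0.81, 0.06 and -0.58 in MaSC and 0.22, -0.45 and -1.36 in MYO for these probe sets in that order, all with an adjusted p of 0.747 or above.

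Xbp1, which switches on genes of the secretory pathway and the unfolded protein response, was read by 4 chip A probe sets. For 1437223_s_at the signal was 28086, 28002 and 31283 in CFC, 13663, 20869 and 28725 in MYO and 10294, 30741 and 26111 in MaSC. The first MYO and first MaSC samples were the lowest and all populations overlapped. The populations also overlapped for 1420886_a_at, with signals of 14009 to 19222 in CFC, 7448 to 17132 in MYO and 13594 to 21797 in MaSC, and for 1420011_s_at with 5125 to 8667, 2478 to 7958 and 3175 to 9291. The dimmest, 1420012_at, had 1149 to 1992 in CFC, 940.4 to 1181 in MYO and 564 to 2176 in MaSC. The log2 fold changes of the 4 probe sets against CFC were between -0.61 and 0.04 in MaSC and between -0.53 and -0.47 in MYO. For 1437223_s_at the 95% interval was -1.36 to 0.32 in MaSC and -1.36 to 0.31 in MYO. Of 31 genes of the unfolded protein response and the secretory route that Xbp1 serves, 30 were tested. None was called by limma between either basal fraction and CFC, where 0.629% and 0.9% of 17339 genes were called higher and 0.265% and 0.45% lower in MaSC and MYO. The median log2 fold change of the 30 was 0.51 in MaSC and 0.27 in MYO, beside -0.031 and -0.017 over all genes. The smallest p in both belonged to Dnajb9 and Sdf2l1, both of the endoplasmic reticulum folding system, at 1.29 and 1.45 in MaSC and 0.96 and 1.23 in MYO.

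Cebpb, a leucine zipper factor needed for ductal and alveolar growth, had higher means in the basal fractions without separation of the samples. For 1418901_at they were 10859, 9721 and 8728 in CFC, 19621, 14753 and 8400.2 in MYO and 8125, 13247 and 12646 in MaSC. The third MYO and first MaSC samples lay below all CFC samples. The log2 fold change against CFC was 0.46 ± 0.38 in MYO and 0.19 ± 0.38 in MaSC (limma adjusted p = 0.882 and 0.954). The probe set 1427844_a_at had 219.9 to 2709.8 in CFC, 1634 to 2262 in MYO and 397 to 3904 in MaSC, with changes of 0.99 and 0.49.

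Comparing the basal fractions with each other, limma called 0 of the 26 probe sets and 0% of all probe sets on either chip. At an unadjusted p under 0.05, 1 of the 21 chip A probe sets was higher in MaSC than in MYO, Foxa1, where 1.74% of all chip A probe sets were higher and 2.07% lower. Foxa1 was also the 1 probe set of the 26 whose MaSC samples all lay above its MYO samples, as did 4.08% of chip A and 4.46% of chip B probe sets. No probe set of the 10 factors had all MaSC samples below MYO, where 4.1% of chip A and 4.62% of chip B did. The widest 95% interval of the MaSC against MYO log2 fold change on chip A was that of Gata3, -1.90 to 1.55.

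The wider gene groups around these factors were counted with 1 probe set per gene. Of 14 milk protein and secretory genes, which Elf5 and Cebpb help to switch on, 8 fell in MaSC and 7 in MYO against CFC, with medians of -2.08 and -2.06 beside -0.031 and -0.017 over all genes. The casein genes Csn1s2a (-3.71 in MaSC and -4.27 in MYO) and Csn2 (-3.71 and -4.01) and the whey acidic protein relative Wfdc18 (-3.52 and -3.80) were among them. Muc15, a mucin gene, fell by 3.70 in MaSC and the casein gene Csn3 fell by 4.26 in MYO on the log2 scale. Of 13 luminal progenitor genes 1 fell in MaSC, the lactoferrin gene Ltf (-2.65), and 2 in MYO, Ltf (-3.33) and the lipopolysaccharide receptor gene Cd14 (-3.20), with medians of -0.82 and -1.47. Of 11 tested hormone receptor and response genes, the field of Foxa1 and Gata3, none was called in MaSC (median -1.05), where S100a6 (-1.43) and Ptn (-1.65) had the smallest p, and 2 fell in MYO, Ptn (-2.10) and S100a6 (-2.04; median -0.72). No gene of these 3 lists passed the test upward. Over all genes 0.265% were called lower and 0.629% higher in MaSC, and 0.45% and 0.9% in MYO. The hormone response gene Tnfsf11, a paracrine signal induced by progesterone, had its higher signals in MaSC and is named here after its values were seen. They were 132, 85.6 and 187 in CFC, 73.1, 49.9 and 129.7 in MYO and 1064, 571 and 906 in MaSC, with every MaSC sample above all others. The log2 fold change was 1.79 against CFC and 2.07 against MYO (limma adjusted p = 0.288 and 0.999, unadjusted 0.00877 and 0.00289). All its CFC and MYO signals were under the filter signal, so Tnfsf11 met the filter on low signals only through its MaSC arrays. Its higher MaSC values and small unadjusted p-values were therefore favoured in advance. Csn1s2a, Ptn, S100a6 in MYO and Ltf in MaSC lost their calls in at least 1 run with an RNA sample left out, and Csn2, Csn3, Wfdc18 and Muc15 did not. With the variance trend left out of the limma fit, Csn2 in both comparisons, Muc15 in MaSC and Cd14 in MYO lost their calls too. Wfdc18 in both comparisons and Csn3 in MYO kept theirs under all 22 other settings.

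Other transcription factors, like all genes together, showed more calls upward than downward. Of 28 factors of mammary epithelium outside the 10, 4 rose in MaSC and 5 in MYO against CFC and none fell. Over all genes 0.629% were called higher and 0.265% lower in MaSC, and 0.9% and 0.45% in MYO. The list of 28 was chosen to include known basal regulators such as Trp63 and Snai2. Trp63, the master regulator of basal cells, rose by 3.76 and 4.23, and Snai2, a repressor of the luminal fate, by 2.48 and 2.78. Tfap2c, an AP-2 factor, rose by 1.90 and 2.59 and Runx1 by 1.77 and 1.75 in MaSC and MYO, and Egr2, a zinc finger factor also known from Schwann cells, rose by 2.21 in MYO. Runx1 in MYO was outside the rule for named genes and was added after its values were seen. Their medians were -0.07 and 0.0017, close to those of all genes. Of 40 tested relatives from the same families, 1 was called in each comparison. This was Ddit3, a C/EBP-like stress factor, in MaSC (2.49; limma adjusted p = 0.0476) and the forkhead gene Foxp1 in MYO (1.79; limma adjusted p = 0.0114), with medians of 0.16 and 0.19. The signal of Foxp1 was 4713, 3199 and 2044 in CFC, 14468, 9638 and 10084 in MYO and 4598, 4033 and 7157 in MaSC, so that MYO was apart from both other populations while Foxa1 was lowest there. Ddit3 had 3323, 89.1 and 2463 in CFC, and without the low CFC replicate 2 its call was lost. Trp63 kept its call in both comparisons, and Tfap2c in MYO, with each RNA sample left out, while Snai2 in both, Runx1 and Tfap2c in MaSC, and Egr2 and Foxp1 in MYO lost theirs in at least 1 such run.

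**Figure D3:**
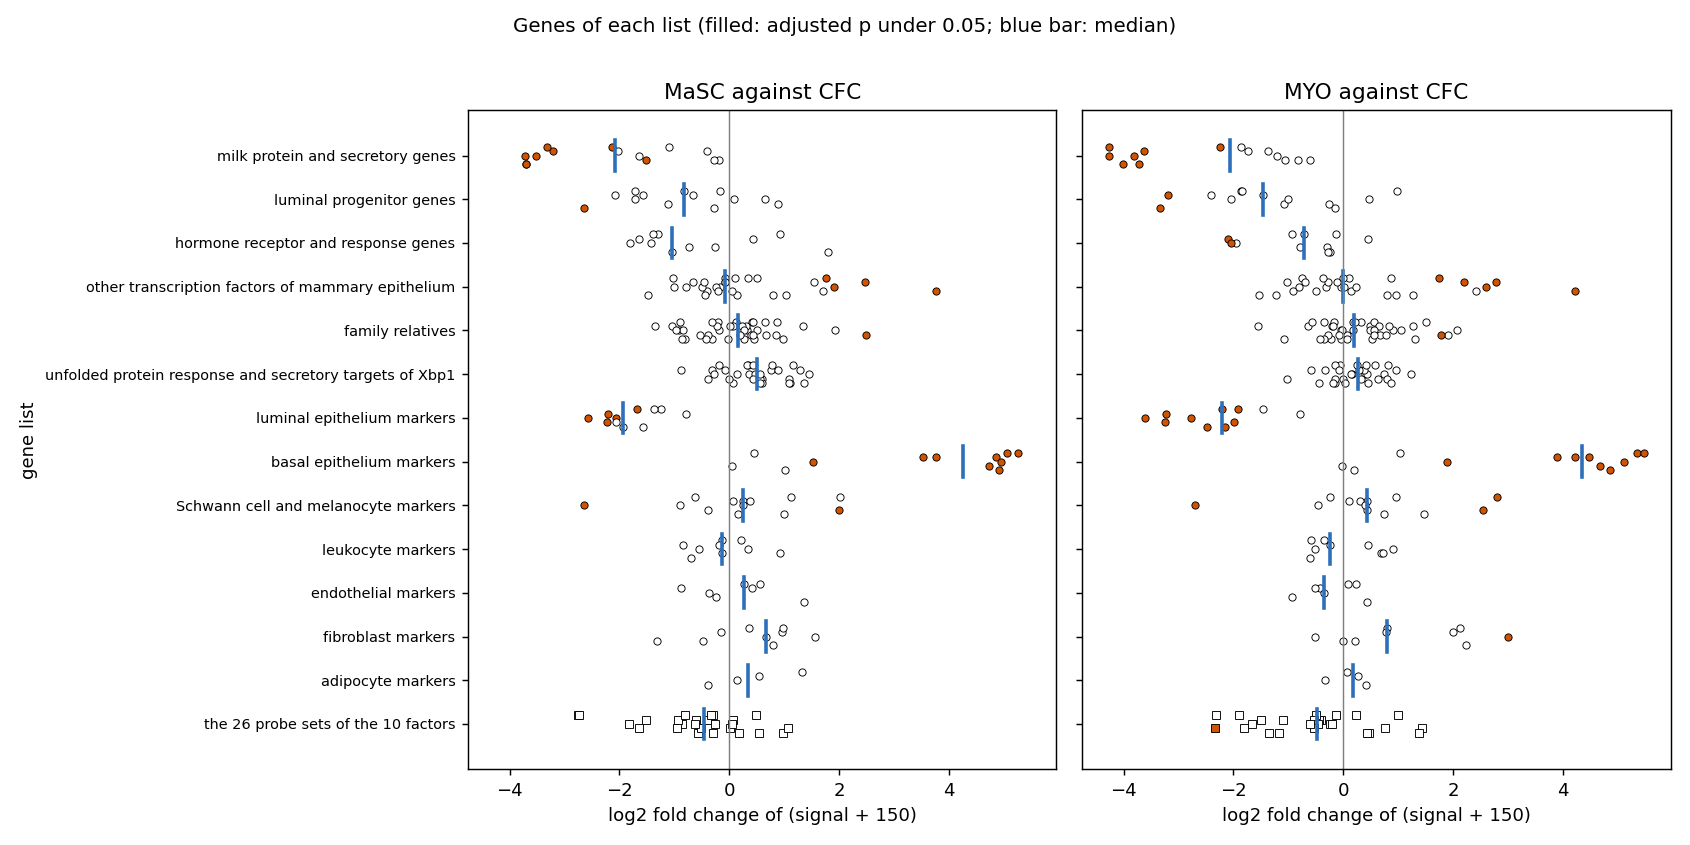
Log2 fold changes of (signal + 150) of the genes of each list and of the 26 probe sets (bottom row) against CFC. Points are genes or probe sets, filled where the adjusted p is under 0.05, and blue bars are medians. Milk protein genes and luminal markers lie to the left and basal markers to the right in both panels, and the 26 probe sets hold 1 filled point, Foxa1 in MYO.

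Markers of cells that a sort could carry over were counted in the same way. None of 9 leukocyte, 7 endothelial or 4 adipocyte genes tested was called between MaSC or MYO and CFC. Of 9 fibroblast genes 1 rose in MYO, Col3a1 (3.00), a call kept under 15 of 22 other settings, with a limma adjusted p of up to 0.352. Over all genes 0.629% were called higher and 0.265% lower in MaSC, and 0.9% and 0.45% in MYO. The 2 lowest p-values in each list belonged to Cd79a and Cd52 (0.92 and -0.84), Flt1 and Cldn5 (1.35 and -0.88), Thy1 and Col3a1 (-1.32 and 1.57) and Adipoq and Cidec (1.33 and 0.54) in MaSC. In MYO they belonged to Lyz2 and Ptprc (0.90 and 0.73), Eng and Cldn5 (-0.94 and -0.42) and Lpl and Fabp4 (0.41 and -0.34). The summed fibroblast signal on chip A was 14414 to 23624 in CFC, 19977 to 68803 in MYO and 12962 to 32077 in MaSC. Over 5 adipocyte genes the sum was 4386 to 9654 in CFC, 3082 to 24413 in MYO and 4864 to 29926 in MaSC. MYO replicate 3 (24413) and MaSC replicates 2 and 3 (14113 and 29926) lay above all CFC samples, and MYO replicate 1 lay below them. Fabp4 had signals of 22090 in MYO replicate 3 and 12238 and 27048 in MaSC replicates 2 and 3, against 1939 to 6997 in CFC. The part of adipocytes in these samples was not tested.

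Genes with a profile most like that of Foxa1 were found by the root mean square difference of log2 values over the 9 chip A samples, each gene centred on its own mean. The nearest were Mpc1, which encodes a subunit of the mitochondrial pyruvate carrier, at a difference of 0.394, and the membrane mucin gene Muc13 at 0.444. Mpc1 had signals of 855, 2138 and 987 in CFC, 42.1, 302 and 157 in MYO and 188, 940 and 709 in MaSC. Like Foxa1, both had their highest signal in CFC replicate 2 and their lowest in MYO replicate 1, at 12516.5 and 193 for Muc13.

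**Figure D4:**
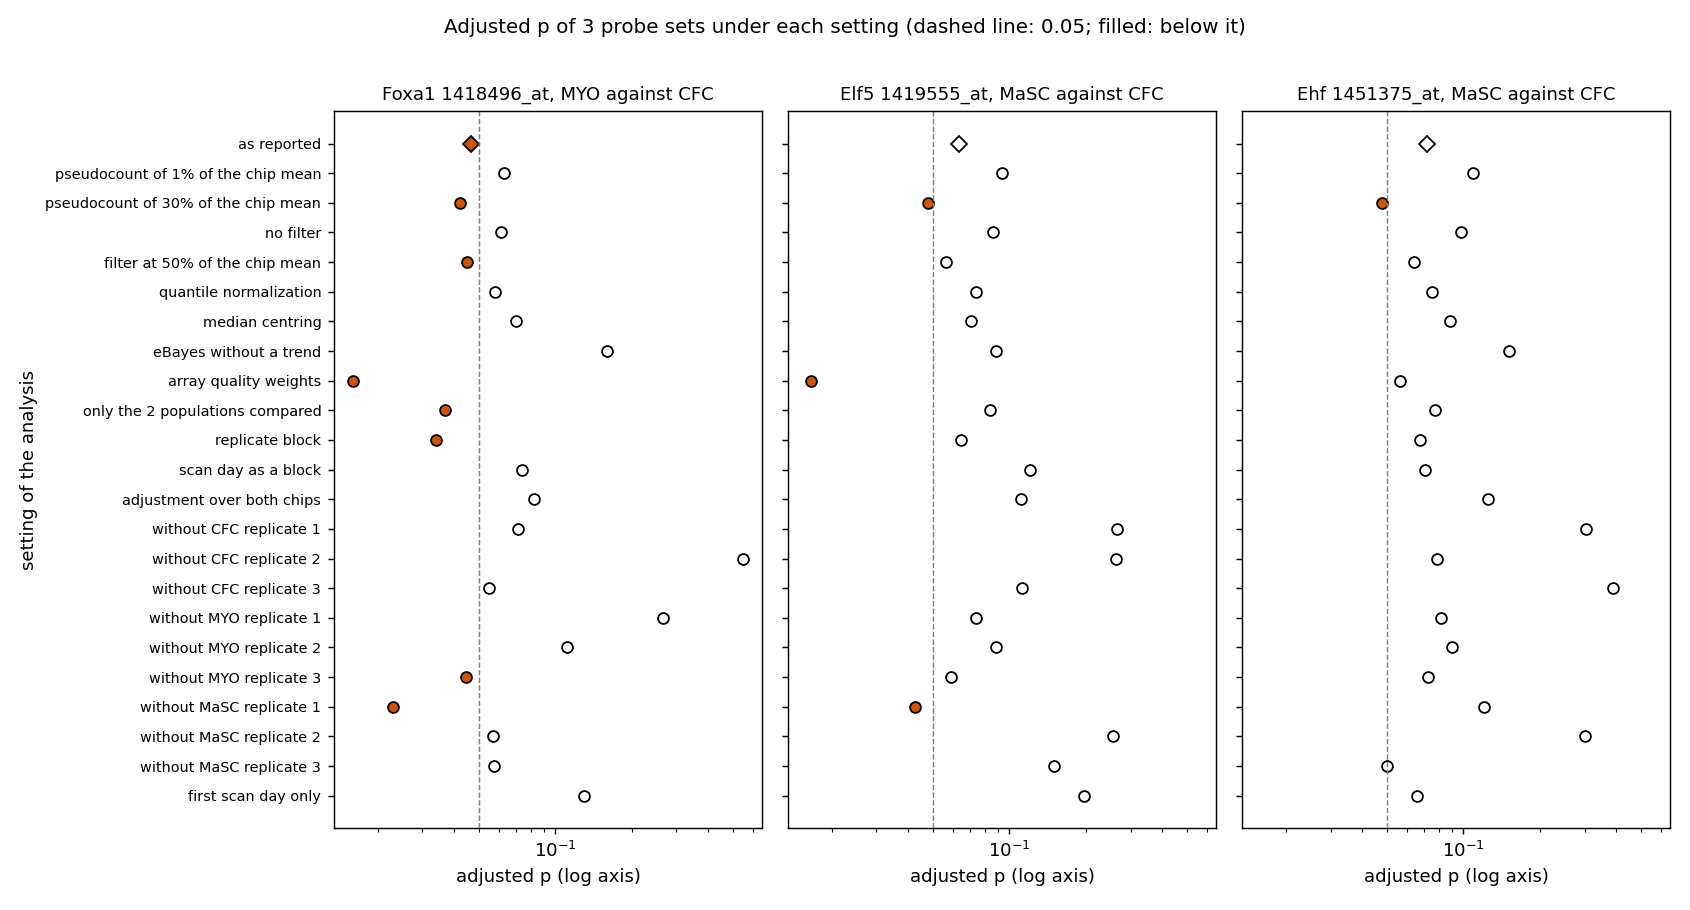
Adjusted p (log axis) of the 3 probe sets with the lowest values, under the reported analysis (diamond) and 22 other settings (circles). Filled symbols are below the threshold of 0.05, marked by the dashed line. Foxa1 in MYO against CFC is below it under 7 of the 22, Elf5 1419555_at in MaSC against CFC under 3 and Ehf 1451375_at in MaSC against CFC under 1.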

How the data were processed

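The members and gene lists were chosen with earlier results of these data known. The deposited values are intensities, 1 MAS5 signal per probe set and array on a linear scale, per the submitters' processing notes, which give no MAS5 version or target. All 18 arrays had the same mean signal between the 2nd and 98th percentiles, so the authors' scaling was kept. The handling records deposited with the arrays hold other entries, among them chip type, scan day and a station number. All 18 matched the labels in sample name and chip type. On chip A the station was 2 for all CFC arrays, MYO replicates 1 and 2 and MaSC replicate 3. It was 1 for MYO replicate 3 and MaSC replicates 1 and 2. No setting took the station into account. Detection calls were not used.

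A pseudocount of 150 (10% of the chip mean signal) was added before log2, so fold changes understate those of dim genes. Testing required a signal of 300 on at least 3 of a chip's 9 arrays. All 26 probe sets of the factors passed, but with the CFC arrays set aside 22 would have and 4 would not (Elf5 1419556_at, Ehf 1419474_a_at, Ehf 1419475_a_at and Tbx3 1439567_at). With the MaSC arrays set aside 23 would have passed and 3 would not, which are the same ones without Elf5 1419556_at. With the MYO arrays set aside all 26 would have passed. Under the filter used, chip A had 20159 tested probe sets and chip B 21394. Control probe sets were left out, and those on both chips were tested on chip A.

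Each chip was fitted with limma 3.58.1 in R 4.3.3 (lmFit, eBayes with a trend, 3 population means, 6 residual degrees of freedom), and p-values were adjusted by the Benjamini-Hochberg method over all probe sets of the chip, with calls under 0.05. The procedure was run on simulated chip A data with known shifts, placed only in probe sets brighter on average than the chip mean. That run does not cover dim signals such as those of Elf5, Ehf and Gata3 in the basal fractions. Values are signals per RNA sample and log2 fold changes ± SE, and the number of arrays limits the precision. Symbols came from the platform annotation and were updated through Entrez identifiers (20364 of 20393 single-symbol probe sets on chip A and 14499 of 14674 on chip B).

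All probe sets of the factors are described, the dimmer ones by their ranges. A list gene took its brightest probe set, on chip B only where chip A had none; up to 4 called genes per list and comparison with the largest change are named, or the 2 with the smallest p. Genes of like pattern are named only for called members. The replicate numbers did not pair the samples: over 18 same-numbered pairs the correlation of deviations from the population means was -0.113 to 0.118. Alternatives covered pseudocount, filter, normalization, variance model, weights, blocks, adjustment and each RNA sample left out; the first scan day alone was added after seeing the data.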

Additional observations from a re-analysis of the deposited data

How the results depend on the processing

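The number of arrays and the spread of dim signals limit these results, since most values of Elf5, Ehf and Gata3 in the basal fractions lie near or under 300. Samples of the same population correlated at 0.596 to 0.784 on chip A and only 0.424 to 0.566 on chip B, over the log2 values of all tested probe sets. On chip A MaSC replicate 1 correlated at 0.599 and 0.596 with MaSC replicates 2 and 3, which correlated at 0.784 with each other. The count of factors' probe sets called lower in MYO against CFC was 1. It was 0 with a pseudocount of 1% of the chip mean, no filter, quantile normalization, median centring, no variance trend, scan day as a block, adjustment over both chips or the first scan day alone, and 2 in fits of only the populations compared; leaving out each RNA sample gave 0 to 1. The count called lower in MaSC against CFC was 0. It was 2 with a pseudocount of 30% and 1 with array quality weights, and 0 to 1 with each RNA sample left out. The other 4 counts, higher in either basal fraction against CFC and either direction between MaSC and MYO, were 0 under every setting tried. With the replicate block, which rests on numbers that do not pair the samples, the counts were 0 lower in MaSC and 1 lower in MYO (Foxa1, adjusted p = 0.0338), and a sample correlated best with its own number in 12 of 36 cases. No called value of the 10 factors changed sign, and the causes of lost or gained calls were not tested. Of the 45 calls of list genes followed, 27 were lost without the variance trend, 21 without at least 1 RNA sample and 15 under another setting. A gene called in both comparisons was counted in each. Over all probe sets, 182 higher and 76 lower in MaSC became 33 and 6 without the trend, and 259 and 113 in MYO became 87 and 31. The count lower in MaSC was also 47 with the 1% pseudocount and 48 with median centring, the count higher in MaSC 117 with scan day as a block and 86 on the first scan day, where that higher in MYO was 144. Leaving out 1 RNA sample gave 105 to 216 higher and 30 to 80 lower in MaSC, and 152 to 313 higher and 68 to 160 lower in MYO.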
